A study of Homo sapiens with 12 samples.

Results

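The response of control NT2/D1 cells to all-trans retinoic acid (ATRA) was described from the 6 control libraries among the 12 libraries of the series. NT2/D1 is a human embryonal carcinoma line, a pluripotent tumour line used as a model of early embryonic cells. The control cells carry the label CRISPR/Cas9 control, and the labels do not say whether they are 1 clone. They were grown untreated (3 libraries) or with 1 µM ATRA for 3 days (3 libraries), and the treated libraries are called ATRA 1, ATRA 2 and ATRA 3 after their replicate numbers. The other 6 libraries are PRMT6 knockout cells, untreated or given the same ATRA, and enter here through the shared estimate of spread and 1 comparison near the end. The labels do not tell whether replicate libraries were grown as separate cultures, and the p-values reflect only how these libraries vary, which may be technical. Of 56638 genes in the table, 19130 had enough counts to be tested.

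ATRA enters cells and binds retinoic acid receptors (RARs), which sit with retinoid X receptors on paired hexamer sites in DNA and turn on transcription when the ligand arrives. Early targets include enzymes that destroy the ligand, the receptor RARB, and the HOX genes, which give cells a position along the head-to-tail axis. In embryonal carcinoma cells retinoic acid is known to shut down the pluripotency network and to start differentiation.

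The classical binding site is a direct repeat of a hexamer with 5 bases between the copies, called DR5. It was searched for in RefSeq promoter windows (GRCh38.p14) on both strands, each hexamer being AGGTCA, or AGTTCA, or GGGTCA, or else GGTTCA. The repeat was found in 31 of 35116 windows of 300 bases (0.0883%), and the windows of CYP26A1 and RARB were among them. The 250 bases before the start of each gene are shown because both genes are textbook retinoic acid targets whose levels are described below. Capitals mark the half-sites, 5′ to 3′ on the plus strand, which is the strand of both genes. The CYP26A1 stretch is chr10:93073643-93073892, and its repeat lies on the minus strand and begins 90 bases before the gene. The RARB stretch is chr3:25428013-25428262, and its repeat lies on the plus strand and begins 53 bases before the gene.
CYP26A1: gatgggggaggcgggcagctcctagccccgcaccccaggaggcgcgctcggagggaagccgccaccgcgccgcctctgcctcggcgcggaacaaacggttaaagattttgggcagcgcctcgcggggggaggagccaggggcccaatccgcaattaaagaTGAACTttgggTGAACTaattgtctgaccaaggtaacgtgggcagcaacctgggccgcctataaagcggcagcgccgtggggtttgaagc
RARB: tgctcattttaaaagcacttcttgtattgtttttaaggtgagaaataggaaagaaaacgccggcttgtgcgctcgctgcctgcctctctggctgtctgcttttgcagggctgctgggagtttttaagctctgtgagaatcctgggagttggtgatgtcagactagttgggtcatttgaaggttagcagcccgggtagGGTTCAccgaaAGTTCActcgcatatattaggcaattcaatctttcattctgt
A match is a description of the letters in the window. Of the 29 gene symbols with such a window 11 were tested here, and 5 of them met the response rule given below in ATRA 1 and 3. BATF2, CYP26A1 and FSCN2 were higher in ATRA 1 and 3 only, RARB was higher in all 3 treated libraries, and the collagen gene COL24A1 was lower in ATRA 1 and 3 only. Of all genes tested, 5.42%, 1.51% and 6.8% met the rule in these 3 ways.

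For most genes that rose in both ATRA 1 and 3, the library labelled ATRA 2 did not meet the response rule given below (1037 genes, against 289 higher in all 3). Counts of calls and adjusted p-values are therefore given with and without ATRA 2. Leaving out a library lowers p for genes where that library differs from its group. A smaller p without ATRA 2 is thus no separate support, for any gene or list below. The log2 expression of ATRA 2 correlated with the untreated libraries at 0.967, 0.939 and 0.969 (across genes, not independent replicates) and with ATRA 1 and 3 at 0.944 and 0.94. ATRA 1 and ATRA 3 correlated at 0.979. Untreated 1 correlated at 0.946 with ATRA 1 and 0.964 with ATRA 3, against 0.921 with untreated 2 and 0.959 with untreated 3. The untreated libraries held 35.8, 52.7 and 60.4 M counts and the treated ones 32.1, 37.2 and 38.4 M, so that 3 counts are worth 0.0433 to 0.0923 CPM, the unit of counts scaled to library size. All 12 markers of the labelled cell type were tested, and their summed level was 5589.7 to 8246 CPM in the untreated libraries and 3770.5, 5170.4 and 5113 CPM in ATRA 1, 2 and 3. PRMT6, the gene deleted in the knockout, stood at 22.4, 1.94 and 8.94 CPM in the untreated control and at 29.9, 15.9 and 26.8 CPM with ATRA. It was present in all 6 control libraries, and its fold change misses the threshold (log2 fold change 1.13 ± 0.67 SE, edgeR adjusted p = 0.351; 0.212 without ATRA 2).

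To describe the response library by library, a treated library was said to respond for a gene when its log2 CPM lay outside the range of the 3 untreated libraries and at least 2-fold from their mean. This is a count and no test, and the 3 treated libraries share the same untreated libraries. By this rule 1957 genes were higher and 2504 lower in ATRA 1, and 1973 were higher and 3142 lower in ATRA 3. ATRA 2 had 1114 higher (5.82% of genes tested) and 891 lower (4.66%). In total RNA of whole cultures, fewer cells of a type and less RNA per cell cannot be told apart.

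Sharing between the libraries followed 1 main pattern, in which ATRA 1 and 3 responded and ATRA 2 did not. All 3 treated libraries were higher for 289 genes (1.51%) and lower for 305 (1.59%). ATRA 1 and 3 alone were higher for 1037 genes (5.42%) and lower for 1301 (6.8%). In contrast, 142 genes (0.742%) were higher in ATRA 1 and 2 only and 63 (0.329%) in ATRA 2 and 3 only, and 120 (0.627%) and 46 (0.24%) were lower. In ATRA 2 alone 620 genes (3.24%) were higher and 420 (2.2%) lower. ATRA 1 alone had 489 higher (2.56%) and 778 lower (4.07%), and ATRA 3 alone had 584 higher (3.05%) and 1490 lower (7.79%).

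**Figure D1:**
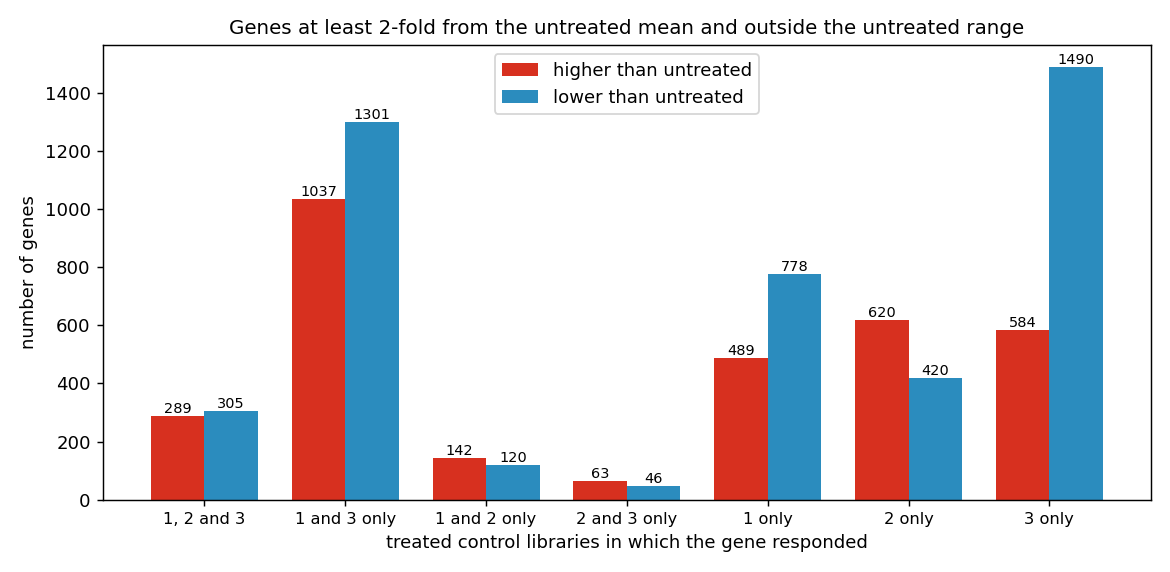
Number of genes (vertical axis) that were higher or lower than the untreated control, by the treated libraries in which they responded (horizontal axis). The pair of ATRA 1 and 3 shares 1037 higher and 1301 lower genes, and the other pairs share at most 142.

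Among genes that responded in ATRA 1 and 3 only, ATRA 2 sat inside the untreated range for 729 of the 1037 higher genes (70.3%) and 957 of the 1301 lower genes (73.6%). These shares are a description, since the pattern itself leaves out genes that ATRA 2 shares. The median log2 ratio to the untreated mean of the 1037 genes was 1.83 in ATRA 1, 0.267 in ATRA 2 and 1.75 in ATRA 3. For the 289 genes higher in all 3 it was 2.15, 1.6 and 1.92. The untreated libraries also differed among themselves: untreated 2 was the untreated library farthest from the treated ones for 203 of the 289 genes (70.2%) and for 256 of the 305 genes lower in all 3 (83.9%). For genes responding in ATRA 1 and 3 only, it was the farthest for 680 of the 1037 higher (65.6%) and 711 of the 1301 lower (54.7%). Without the 2-fold minimum, the 3 treated libraries lay above all untreated ones for 1413 genes (7.39%) and below them for 1424 (7.44%). Of the genes responding in all 3, only 47 of the 289 and 51 of the 305 were at least 2-fold from the nearest untreated library in every treated library. Without untreated 1 the counts of all-3 genes became 707 and 996, and without untreated 2 they became 235 and 184.

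Base composition moved with these groups. Expression relative to the mean of the 6 control libraries correlated by rank, across genes, with GC content at 0.148, -0.156 and 0.333 in ATRA 1, 2 and 3 and 0.116, -0.178 and -0.279 in the untreated libraries. Among genes of at least 5 CPM, median GC content was 56% for those higher in all 3 treated libraries, 53.6% for those higher in ATRA 1 and 3 only, 50.7% for those lower in all 3, 45.5% for those lower in ATRA 1 and 3 only, and 48.5% for all genes of that level. The share of mitochondrial counts was 4.16%, 6.43% and 5.14% in ATRA 1, 2 and 3 and 5.34%, 8.19% and 4.2% in the untreated libraries. With each library's GC trend removed, 961 genes were higher and 1307 lower in ATRA 1 and 3 only, and 271 higher and 301 lower in all 3. The count of genes lower in ATRA 3 only went from 1490 to 915. The part of base composition in these counts was not tested further.

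Across all 3 treated and 3 untreated libraries, edgeR called 19 genes higher (0.0993%) and 3 lower (0.0157%) with ATRA. METRN, PRRX2 and MDK were among the higher genes, and MIAT and PHC1 among the lower ones. Without ATRA 2, 1064 genes were called higher (5.4%) and 1355 lower (6.87%) of 19711 tested. The calls depended on other libraries as well, with 1148 higher and 1309 lower without untreated 1, none without untreated 2 (3276 genes at an unadjusted p under 0.05) and none without untreated 3 (2852 genes). There were 2 higher and 0 lower without ATRA 1, and 12 higher and 0 lower without ATRA 3. DESeq2 called 870 higher and 751 lower on all libraries, limma-voom 20 and 10, and edgeR on the 6 control libraries alone called 0 in either direction (2086 at an unadjusted p under 0.05). In edgeR, 3961 genes (20.7%) had an unadjusted p under 0.05.

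METRN, which encodes the secreted neurotrophic factor meteorin, stood at 24.7, 26.4 and 31.8 CPM untreated and at 304, 185 and 161 CPM with ATRA. Each treated library was at least 5.86-fold above the untreated mean, ATRA 2 included (7.84-fold, log2 fold change 2.97 ± 0.34 SE, edgeR adjusted p = 0.0121; without ATRA 2 3.08, adjusted p = 0.00117). PRRX2, a homeobox gene of limb and craniofacial mesenchyme, had 35.6, 32.2 and 26 CPM untreated and 118, 132 and 103 CPM with ATRA. Its highest treated library was ATRA 2 (log2 fold change 1.92 ± 0.21 SE, edgeR adjusted p = 0.0118; without ATRA 2 1.83, adjusted p = 0.00111). MDK, which encodes midkine, a growth factor first found as a retinoic acid-induced gene, was even across untreated libraries at 1152, 1143 and 1156 CPM. It reached 3753, 2331 and 3207 CPM with ATRA, lowest in ATRA 2 (log2 fold change 1.43 ± 0.21 SE, edgeR adjusted p = 0.041; without ATRA 2 1.60, adjusted p = 0.00116).

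PKDCC, a secreted kinase of skeletal development, rose from 232, 111 and 171 CPM to 964, 547 and 550.4 CPM (edgeR adjusted p = 0.0464; 0.00407 without ATRA 2). BCL7C, a subunit of BAF chromatin remodelling complexes, rose from 35.3, 30.4 and 21.3 to 124, 99 and 81.8 CPM (edgeR adjusted p = 0.0295; 0.00246 without ATRA 2). TNFRSF12A, the receptor of the cytokine TWEAK, stood at 65, 38.9 and 51.3 CPM untreated and at 136, 189.6 and 112 CPM with ATRA, highest in ATRA 2 (edgeR adjusted p = 0.0441; 0.00711 without ATRA 2). WTIP, DGCR6 and FAM89B rose 2.9-fold, 2.88-fold and 2.83-fold (edgeR adjusted p = 0.041, 0.0397 and 0.0499; 0.00297, 0.00347 and 0.00707 without ATRA 2). GPR162, an orphan receptor gene, was the 1 named gene among them that met the response rule in ATRA 1 and 3 only, at 262, 99.5 and 229 CPM against 68.7, 46.7 and 52.3 CPM (edgeR adjusted p = 0.05 after rounding; 0.000494 without ATRA 2). The called higher genes had a median GC content of 64.2% (17 of 19 with a value), and with GC trends removed 10 genes were called higher. Of the named higher genes, METRN, PRRX2, WTIP and DGCR6 then kept an edgeR adjusted p under 0.05, at 0.0492 each. MDK (0.0545), PKDCC (0.0616), BCL7C (0.0509), TNFRSF12A (0.0616), FAM89B (0.0658) and GPR162 (0.0604) did not.

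The 3 genes called lower were MIAT, PHC1 and CTSK. With GC trends removed, none of them passed the threshold (edgeR adjusted p = 0.0564, 0.051 and 0.0549), and 2 genes were called lower. MIAT, a long noncoding RNA, stood at 13.3, 41.4 and 12.4 CPM untreated and at 0.831, 3.22 and 1.87 CPM with ATRA (log2 fold change -3.50 ± 0.54 SE, edgeR adjusted p = 0.0441; without ATRA 2 -4.04, adjusted p = 0.00297). PHC1, a subunit of Polycomb repressive complex 1, had 204, 534 and 299 CPM untreated and 73.1, 89.4 and 106 CPM with ATRA (log2 fold change -1.95 ± 0.30 SE, edgeR adjusted p = 0.0441; without ATRA 2 -1.94, adjusted p = 0.00766). CTSK, which encodes the protease cathepsin K, had 11, 13.9 and 7.64 CPM untreated and 2.61, 3.09 and 3.71 CPM with ATRA (edgeR adjusted p = 0.0441; 0.00829 without ATRA 2). The rule for named genes takes only called genes whose treated and untreated libraries do not overlap, so the lack of overlap is no finding. Besides the 13 genes named so far, 9 were called that the rule for named genes leaves out, namely MIR663A, MIR3687, MIR3648, MIR4477A, TYROBP, HOXD-AS2, TAX1BP3, LINC00936 and CTB-158E9.1, each of them higher. TAX1BP3, a coding gene, was left out only because symbols ending in P and a number were treated as pseudogenes. Its log2 fold change of 1.57 (edgeR adjusted p = 0.0441; 0.00176 without ATRA 2) is above the 1.43 of MDK, the last of the higher genes taken.

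**Figure D2:**
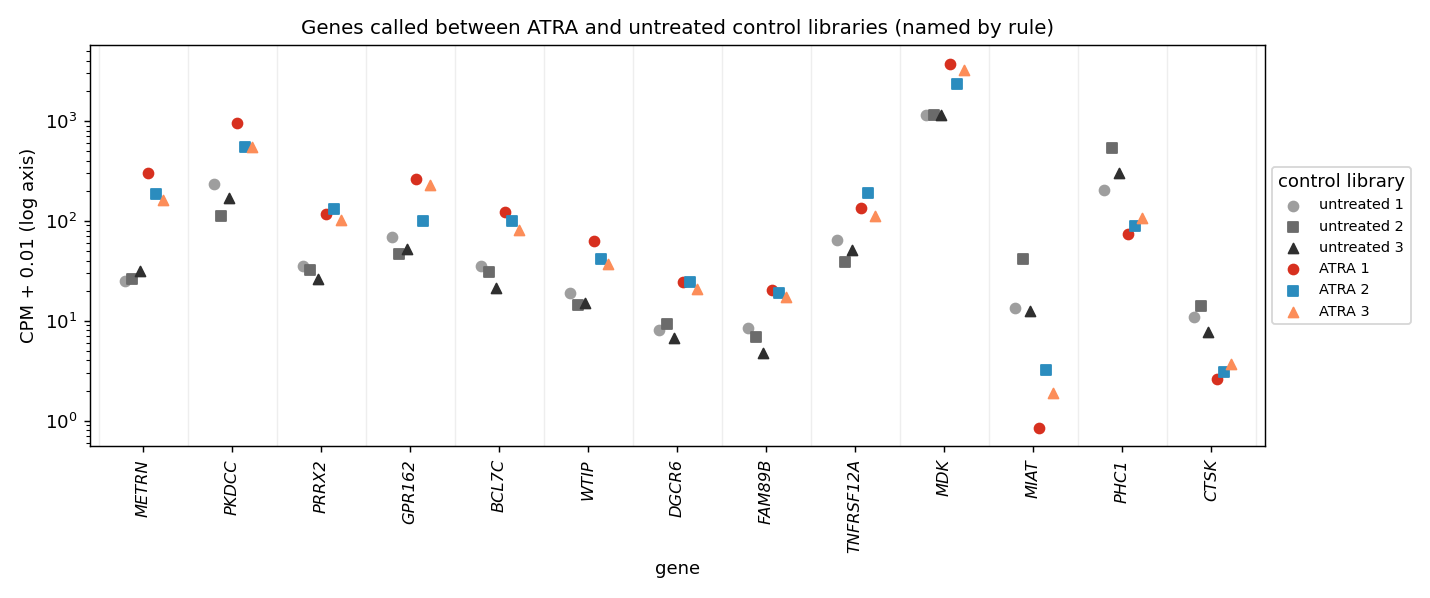
CPM (log axis, 0.01 added) of the 13 called genes chosen by the rule for named genes, in each of the 6 control libraries. The rule required that treated and untreated points do not overlap. ATRA 2 (blue squares) is the highest treated library for PRRX2, TNFRSF12A, DGCR6 and MIAT. It is the lowest for MDK, PKDCC and, at 99.5 CPM, GPR162.

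Of 14 tested genes of retinoid synthesis and breakdown, 3 were higher in ATRA 1 and 3 only and 1 was lower in all 3. In single libraries 1 more was higher and 1 lower in ATRA 1, 2 were lower in ATRA 2 and 2 in ATRA 3. Of 21 tested receptor and binding genes, 6 were higher in ATRA 1 and 3 only and 1 in all 3. A further gene was higher in each of ATRA 1, 2 and 3 alone, 1 for each library, and 1 was lower in ATRA 2 and 3. edgeR called 0 of either list. At an unadjusted p under 0.05 there were 2 higher and 4 lower in the first list and 7 higher in the second. DESeq2 called 1 higher and 1 lower in the first list and 6 higher in the second, and limma-voom called 0. Without ATRA 2 edgeR called 1 higher and 1 lower in the first and 6 higher in the second. Among all genes tested, 5.42% were higher in ATRA 1 and 3 only, and 1.51% were higher and 1.59% lower in all 3. Of 19130 genes, 1901 were higher and 2060 lower at an unadjusted p under 0.05, and DESeq2 called 870 and 751. Without ATRA 2 edgeR called 5.4% of all genes higher and 6.87% lower, and the first list is near these shares. The median log2 fold changes of the first and second list were -0.285 and 0.517, against -0.0369 over all genes tested.

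CYP26A1, the cytochrome P450 that breaks down retinoic acid, stood at 0.0267, 3.2 and 0.0433 CPM untreated and at 256, 0.052 and 12.4 CPM with ATRA. ATRA 1 and 3 were above every untreated library, whereas ATRA 2 held the level of untreated 1 and 3 (log2 fold change 6.33 ± 2.45 SE, edgeR adjusted p = 0.173; without ATRA 2 6.92, adjusted p = 0.0578). DHRS3, which reduces retinaldehyde back to retinol, had 10.4, 13.8 and 14.7 CPM untreated and 73.5, 7.64 and 37.2 CPM with ATRA. ATRA 2 was below all untreated libraries, and without it DHRS3 rose by 2.10 on the log2 scale (edgeR adjusted p = 0.00356, against 0.141 with it). RDH10, which makes retinaldehyde, showed the same order, with 11.9, 2.91 and 10.4 CPM against 3.42 to 5.15 CPM untreated (edgeR adjusted p = 0.312; 0.0532 without ATRA 2). ALDH1A3, which makes retinoic acid, moved the other way, from 9.64, 20.4 and 17.6 CPM to 1.08, 7.54 and 1.53 CPM. It was lower in all 3 treated libraries, least in ATRA 2 (log2 fold change -2.23 ± 0.70 SE, edgeR adjusted p = 0.113; without ATRA 2 -3.60, adjusted p = 0.00643).

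Among receptors, RARB stood at 0.4, 0.0352 and 1.38 CPM untreated and at 18.8, 1.61 and 5.21 CPM with ATRA. All treated libraries were above all untreated ones, but ATRA 2 only by the gap from 1.38 to 1.61 CPM (log2 fold change 3.77 ± 0.97 SE, edgeR adjusted p = 0.0777; without ATRA 2 4.26, adjusted p = 0.0131). RARA had 22.6, 10.2 and 15.8 CPM untreated and 85.2, 16.3 and 73.2 CPM with ATRA, and ATRA 2 was within the untreated range (edgeR adjusted p = 0.0837; 0.00301 without ATRA 2). RARG (37.8 to 80.5 CPM untreated and 37.7 to 59.9 CPM with ATRA) and RXRA (50 to 83.1 and 73.6 to 94.2 CPM) did not meet the response rule in any treated library. NR2F1, an orphan receptor known as COUP-TFI, stood at 9.13, 0.564 and 2.21 CPM untreated and at 74.3, 1.72 and 69.5 CPM with ATRA. Its ATRA 2 value again lay within the untreated range (edgeR adjusted p = 0.113; 0.012 without ATRA 2).

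Among binding proteins, CRABP2, which carries retinoic acid to the receptors, had 759, 369.9 and 666 CPM untreated and 4897, 924 and 3332 CPM with ATRA. ATRA 2 was above the untreated libraries, 1.62-fold over their mean, against 8.56-fold and 5.83-fold in ATRA 1 and 3 (log2 fold change 2.35 ± 0.55 SE, edgeR adjusted p = 0.0674; without ATRA 2 2.79, adjusted p = 0.00365). STRA6, the membrane receptor for retinol-binding protein, had 58.2, 37.3 and 30.9 CPM untreated and 134, 51.8 and 100.1 CPM with ATRA (edgeR adjusted p = 0.099; 0.0124 without ATRA 2). CRABP1, the sister carrier, did not meet the response rule, with 160.4, 251 and 156 CPM untreated and 209, 237 and 365 CPM with ATRA.

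**Figure D3:**
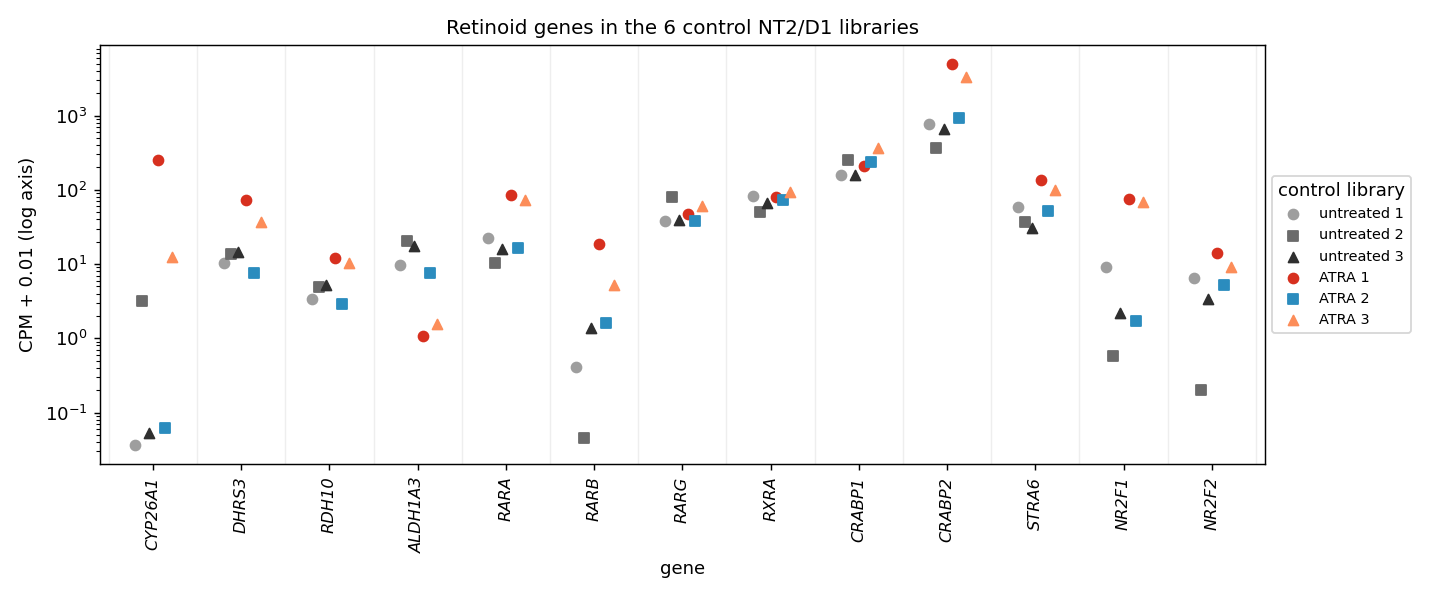
CPM (log axis, 0.01 added) of 13 retinoid genes in each of the 6 control libraries. ATRA 1 and 3 (red and orange) lie above the grey untreated points for CYP26A1, DHRS3, RARA, RARB, CRABP2, STRA6 and NR2F1, where ATRA 2 (blue squares) lies at or near the untreated points.

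Of 11 HOXA genes 9, and of 10 HOXB genes 9, were higher in ATRA 1 and 3 only, and no member of either cluster met the rule upward in ATRA 2. Downward, 3 of the 10 HOXB genes met the rule in ATRA 2 only, against 2.2% of all genes tested. A further 2 HOXA genes and 1 HOXB gene were higher in ATRA 1 only, and 1 HOXA gene was lower in ATRA 3 only. On all libraries edgeR called 0 of the 21. At an unadjusted p under 0.05 there were 9 HOXA and 8 HOXB genes, DESeq2 called 6 and 4 and limma-voom 0. Without ATRA 2 edgeR called 8 HOXA and 7 HOXB genes higher. Among all genes tested, 5.42% were higher in ATRA 1 and 3 only, and edgeR called 5.4% higher without ATRA 2. The median log2 fold change was 4.55 for HOXA and 4.09 for HOXB on all libraries. HOX clusters hold antisense genes, and the labels give no strand setting for the counting, so sense and antisense reads may have been added together.

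HOXA3, a gene of the anterior part of the cluster, had 0.614, 0.0352 and 0.115 CPM untreated and 70.8, 0.546 and 64.6 CPM with ATRA. ATRA 2 lay inside the untreated range (log2 fold change 7.62 ± 1.43 SE, edgeR adjusted p = 0.057; without ATRA 2 8.23, adjusted p = 0.000494). HOXA2 reached 18.7 and 13.6 CPM in ATRA 1 and 3 against 0.13 CPM in ATRA 2 and at most 0.187 CPM untreated (edgeR adjusted p = 0.0579; 0.00161 without ATRA 2). HOXA5 reached 39.5 and 10.2 CPM against 0.182 CPM in ATRA 2 and at most 0.704 CPM untreated (edgeR adjusted p = 0.0674; 0.00246 without ATRA 2). Toward the posterior end the levels were low: HOXA9 had 1.91, 0 and 0.752 CPM, HOXA10 5.88, 0.104 and 1.3 CPM, HOXA11 0.584, 0.078 and 0.0519 CPM and HOXA13 0.215, 0.104 and 0 CPM in ATRA 1, 2 and 3.

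HOXB1, the hindbrain gene at the front of its cluster, stood at 2.67, 9.07 and 2.96 CPM untreated and at 72.8, 1.17 and 39.2 CPM with ATRA (edgeR adjusted p = 0.181; 0.0314 without ATRA 2). HOXB2 had 0.614, 4.33 and 2.52 CPM untreated and 107, 0.78 and 51.9 CPM with ATRA (edgeR adjusted p = 0.0837; 0.00301 without ATRA 2). For both, ATRA 1 and 3 were far above the untreated range, and ATRA 2 was below it for HOXB1 and inside it for HOXB2. HOXB4 had 2 counts in all untreated libraries together, and the treated group was 461-fold higher with a 95% counting interval from 127 to 3813. HOXB5 had no untreated counts and was at least 486-fold higher, with 3 counts over the untreated group as the floor. Its level was 26.1, 0.026 and 3.27 CPM in ATRA 1, 2 and 3, so that both ratios rest on ATRA 1 and 3. Such intervals and floors cover counting error only.

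ATRA 1 stood above ATRA 3 for each of the 18 HOXA and HOXB genes that responded in that pair only. The ratio ran from 1.1 for HOXA3 to 4.53 for HOXA10 in the HOXA cluster and from 1.86 to 7.99 in the HOXB cluster. The other clusters responded in part: HOXC4 was the 1 of 6 tested HOXC genes that responded in ATRA 1 and 3. Of 9 HOXD genes, HOXD3, HOXD4 and HOXD8 were higher in ATRA 1 and 3 only and HOXD10 and HOXD11 lower. HOXD3 stood at 2.78, 1.39 and 1.37 CPM untreated and 23.9, 1.95 and 16.8 CPM with ATRA (edgeR adjusted p = 0.0674; 0.00123 without ATRA 2). HOXD10 went from 16.9, 10.4 and 8.65 CPM to 0.984, 8.78 and 1.22 CPM (edgeR adjusted p = 0.16; 0.000608 without ATRA 2). The HOXC and HOXD genes lie outside the rule for named genes, and HOXD3 and HOXD10 were chosen after their values were seen.

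**Figure D4:**
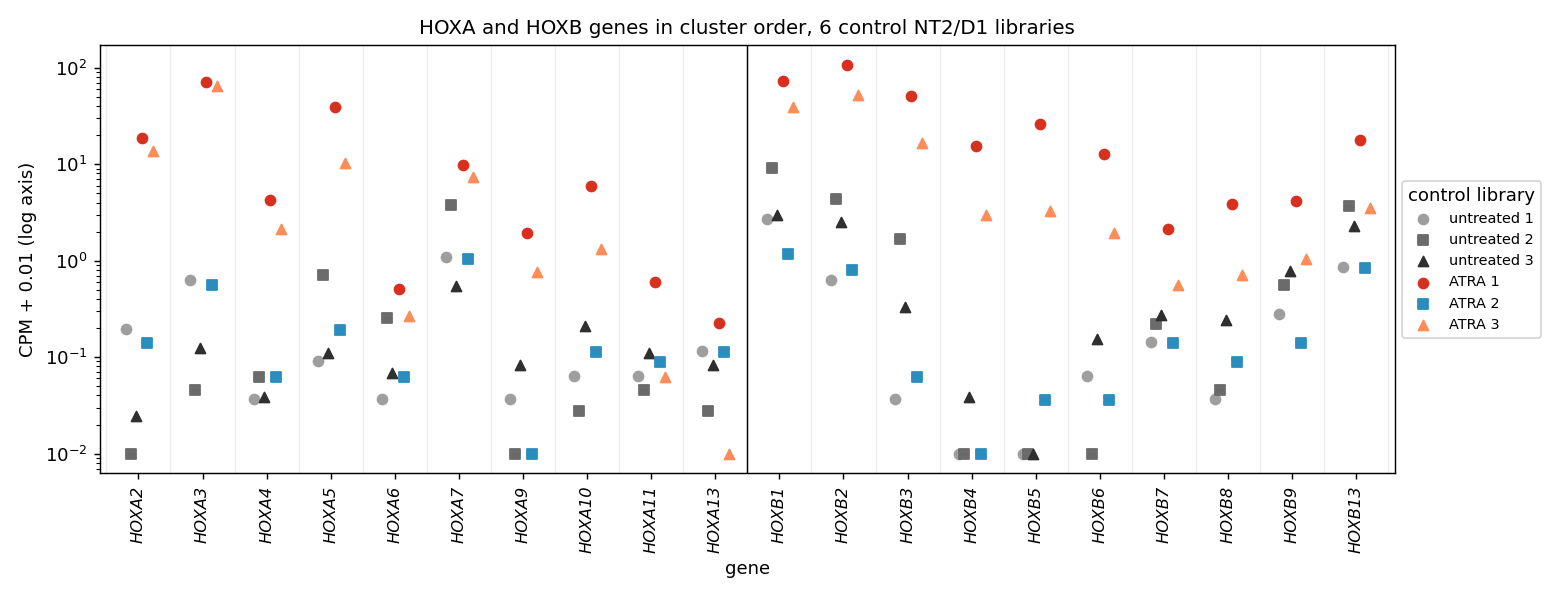
CPM (log axis, 0.01 added) of 10 HOXA genes (left) and 10 HOXB genes (right) in cluster order, in each of the 6 control libraries. ATRA 1 and 3 (red and orange) stand above the untreated points for most genes of each cluster, HOXA3 at 70.8 and 64.6 CPM among them, and ATRA 2 (blue squares) lies among or below the untreated points for these genes except HOXB5, where untreated is at 0.

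Of 16 tested cofactors and regulators of HOX genes, 2 were higher and 1 lower in all 3 treated libraries, and 2 were higher in ATRA 1 and 3 only. edgeR called 0 on all libraries (4 higher and 1 lower at an unadjusted p under 0.05), DESeq2 3 higher and 1 lower, limma-voom 0, and edgeR without ATRA 2 called 4 higher and 1 lower. Among all genes tested, 1.51% were higher and 1.59% lower in all 3, and 5.42% were higher in ATRA 1 and 3 only. MEIS1, CDX1 and MEIS2 were chosen after their values were seen, and the 1 gene lower in all 3 is not among them. MEIS1, a cofactor of HOX proteins, stood at 3.34, 0.898 and 3.33 CPM untreated and at 65.6, 4.89 and 64.1 CPM with ATRA. MEIS1 met the response rule in all 3 treated libraries, with ATRA 2 just above the untreated range (log2 fold change 4.16, edgeR adjusted p = 0.0579; 0.00183 without ATRA 2). CDX1, which activates HOX genes of the trunk, had 0.187, 0.106 and 0.505 CPM untreated and 101, 0.52 and 34 CPM with ATRA. Its ATRA 2 value barely exceeded the highest untreated one, 0.52 against 0.505 CPM (edgeR adjusted p = 0.0638; 0.00377 without ATRA 2). MEIS2 reached 99.4 and 86.1 CPM in ATRA 1 and 3, with 15.2 CPM in ATRA 2 and at most 14.4 CPM untreated (edgeR adjusted p = 0.0674; 0.00301 without ATRA 2).

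Pluripotency genes were lower in ATRA 1 and 3, and some of them in ATRA 2 as well. Of 29 tested, 14 were lower in ATRA 1 and 3 only, 5 were lower in all 3, and none was higher in ATRA 1 and 3 or in all 3. The 5 were NANOG, TDGF1, ESRG, PRDM14 and FOXD3. edgeR called 0 on all libraries. At an unadjusted p under 0.05 there were 18 lower, DESeq2 called 12 lower, limma-voom 3, and edgeR without ATRA 2 called 19 lower. The median log2 fold change was -1.35. Among all genes tested, 6.8% were lower in ATRA 1 and 3 only and 1.59% in all 3, and edgeR called 6.87% lower without ATRA 2.

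POU5F1, which encodes OCT4, stood at 590.5, 1498 and 520 CPM untreated and at 147, 895 and 148 CPM with ATRA. ATRA 2 lay inside the untreated range and ATRA 1 and 3 below it (log2 fold change -1.13 ± 0.65 SE, edgeR adjusted p = 0.338; without ATRA 2 -2.55, adjusted p = 0.0107). NANOG had 46.9, 109 and 65.8 CPM untreated and 2.83, 18.1 and 8.35 CPM with ATRA. Here ATRA 2 was below every untreated library but above ATRA 1 and 3 (log2 fold change -2.92, edgeR adjusted p = 0.057; without ATRA 2 -3.72, adjusted p = 0.00308). SOX2, their partner, had 156, 279 and 183 CPM untreated and 44.6, 137 and 60.7 CPM with ATRA, with ATRA 2 below the untreated range by less than the 2-fold minimum (edgeR adjusted p = 0.0983; 0.00663 without ATRA 2).

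TDGF1, the NODAL co-receptor CRIPTO, had 45.2, 177 and 119 CPM untreated and 1.11, 15.1 and 2.72 CPM with ATRA (edgeR adjusted p = 0.0597; 0.00249 without ATRA 2). PRDM14, a repressor of differentiation genes, had 24.5, 34 and 13.5 CPM untreated and 0.492, 4.83 and 1.84 CPM with ATRA (edgeR adjusted p = 0.057; 0.00297 without ATRA 2). For both, ATRA 2 was below all untreated libraries and was the highest of the treated ones. DNMT3B, a de novo DNA methyltransferase, had 613, 576 and 442 CPM untreated and 109, 286 and 165 CPM with ATRA (edgeR adjusted p = 0.0619; 0.0047 without ATRA 2). L1TD1, an RNA-binding protein of embryonic stem cells, had 157, 396 and 328 CPM untreated and 13.2, 193 and 18.5 CPM with ATRA, and its ATRA 2 value lay in the untreated range (edgeR adjusted p = 0.18; 0.000494 without ATRA 2). LIN28A, SALL4 and PODXL did not meet the response rule in any treated library, LIN28A with 1554 to 3022 CPM untreated and 1724 to 1960.1 CPM with ATRA.

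**Figure D5:**
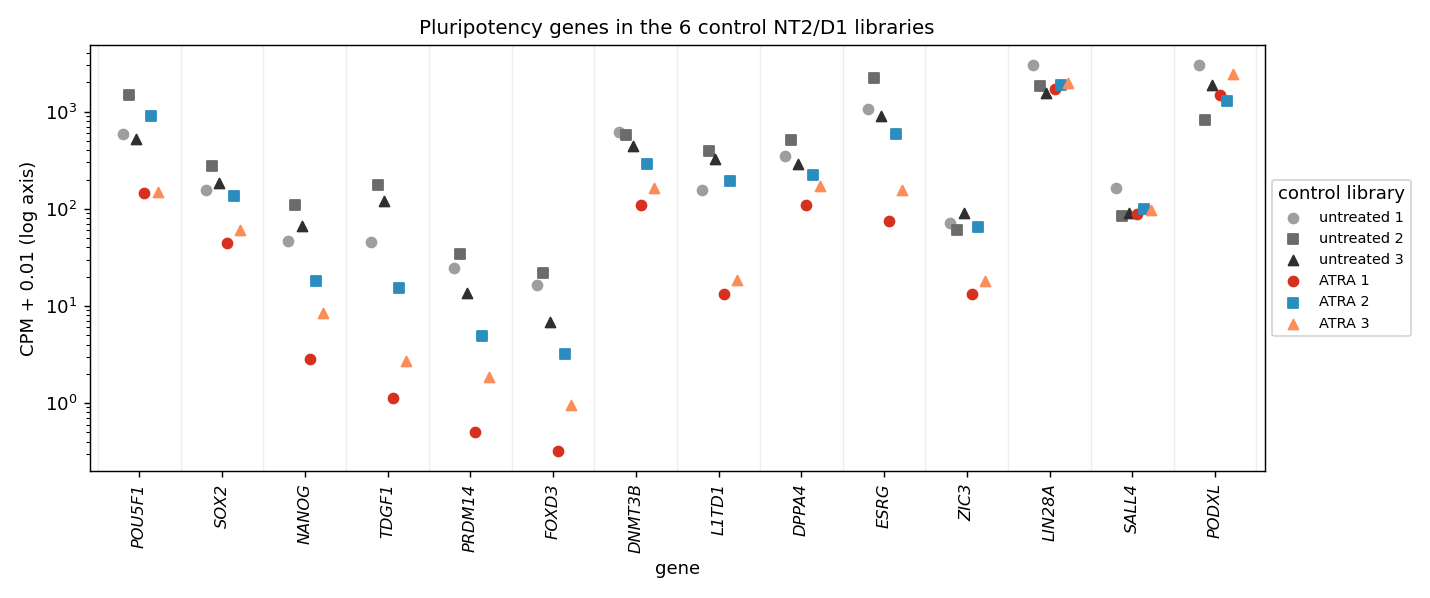
CPM (log axis, 0.01 added) of 14 pluripotency genes in each of the 6 control libraries. ATRA 1 and 3 (red and orange) lie below the untreated points for POU5F1, SOX2, NANOG, TDGF1, PRDM14, FOXD3, DNMT3B and L1TD1, and ATRA 2 (blue squares) lies between for NANOG, TDGF1, PRDM14 and FOXD3, whereas LIN28A, SALL4 and PODXL overlap.

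The rule for named genes also ranked the genes that responded in all 3 treated libraries by the ratio of the least responding one to the untreated mean. HAND1, a regulator of heart and extraembryonic mesoderm, led the higher ones, with 64, 0.317 and 35.6 CPM untreated and 344, 138 and 471 CPM with ATRA (edgeR adjusted p = 0.131; 0.0601 without ATRA 2). The others were KLF2, TMEM204, HAPLN1, RHOB, S100A3, TRIM55, DYNLT3, METRN and MXRA8. The untreated libraries differed widely for several of these. KLF2, a transcription factor gene, had 93, 1.3 and 4.53 CPM untreated and 101, 136 and 221 CPM with ATRA (edgeR adjusted p = 0.277; 0.219 without ATRA 2). RHOB, a small GTPase gene, had 963, 40.4 and 97.3 CPM untreated and 1173, 1197 and 1803 CPM with ATRA (edgeR adjusted p = 0.21; 0.151 without ATRA 2). In both, ATRA 1 lies close to untreated 1, and none of HAND1, KLF2 and RHOB passed the threshold in either fit. The lower ones were RMST, GLB1L3, INSM1, TDGF1, MIAT, GLS2, C15orf27, CR2, PRDM14 and FOXD3. RMST, a noncoding RNA known as a partner of SOX2, had 4.43, 71.2 and 9.86 CPM untreated and 0.738, 1.3 and 0.596 CPM with ATRA, below untreated in each treated library (edgeR adjusted p = 0.057; 0.0136 without ATRA 2).

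A second ranking by this rule used the gap between ATRA 2 and the other treated libraries, leaving out symbols that end in P and a number. Among genes higher in ATRA 1 and 3 only, it gave HOXB3, CYP26A1, HOXA3, LHX1, HOXA2, HOXB2, HOXB4, CLDN2, ACTA1 and HOXA5. DUSP6, described below, is a coding gene left out in this way. LHX1, a LIM homeobox gene of kidney and head development, had 0.667, 0.511 and 0.332 CPM untreated and 44.9, 0.234 and 24.5 CPM with ATRA (edgeR adjusted p = 0.0795; 0.00671 without ATRA 2). CLDN2, a tight-junction gene, had at most 0.507 CPM untreated and 15.7, 0.26 and 16.3 CPM with ATRA (edgeR adjusted p = 0.0674; 0.00318 without ATRA 2). ACTA1, skeletal muscle actin, had 0.202 to 0.347 CPM untreated and 17.3, 0.234 and 13.7 CPM with ATRA (edgeR adjusted p = 0.0603; 0.000779 without ATRA 2). ATRA 2 was the lowest of the 6 libraries for LHX1 and within the untreated range for CLDN2 and ACTA1. These genes were picked because ATRA 2 differed from ATRA 1 and 3, so their smaller p without ATRA 2 follows from the choice and is no support.

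Among genes lower in ATRA 1 and 3 only, the widest gaps under the same symbol filter were in CDH9, CCDC172, C1QL4, SUSD3, SLC7A11, LDHD, KCNK12, L1TD1, GAL3ST1 and ADAMTS4. SLC7A11, the cystine importer, had 9.77, 10.8 and 26.3 CPM untreated and 3.51, 39 and 3.01 CPM with ATRA (edgeR adjusted p = 0.982; 0.0258 without ATRA 2). ATRA 1 and 3 lay below the untreated range and ATRA 2 above it. ADAMTS4, a protease of the cartilage matrix, showed the same split, with 13.4 to 24.3 CPM untreated and 1.69, 36.4 and 3.79 CPM with ATRA (edgeR adjusted p = 0.827; 0.00374 without ATRA 2). KCNK12, a potassium channel gene, had 31, 60 and 34.1 CPM untreated and 2.58, 59.2 and 5.6 CPM with ATRA, so that ATRA 2 lay near the highest untreated library (edgeR adjusted p = 0.568; 0.00297 without ATRA 2). For these genes too, the p without ATRA 2 depends on how they were picked and is no support.

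Signalling genes of the NODAL and FGF pathways, and all genes named from here on in lineage lists, were chosen after their values were seen. Of 16 tested NODAL and GDF genes, 1 was higher and 2 lower in all 3 treated libraries. In ATRA 1 and 3 only, 2 were higher and 3 lower, and edgeR called 0 of the 16 on all libraries. GDF3, a NODAL-like ligand, had 109, 305 and 162 CPM untreated and 13.5, 45.2 and 18.4 CPM with ATRA, below untreated in all 3 treated libraries (edgeR adjusted p = 0.057; 0.00249 without ATRA 2). LEFTY2, a secreted NODAL inhibitor, had 1.07, 1.55 and 0.75 CPM untreated and 143, 1.01 and 19.6 CPM with ATRA, with ATRA 2 inside the untreated range (edgeR adjusted p = 0.0619; 0.00151 without ATRA 2). Of 22 tested genes of the FGF and ERK list, 9 were lower in ATRA 2, against 4.66% of all genes tested. The 9 were FGF4 in all 3 treated libraries, SPRY4 in ATRA 1 and 2, and FGF8, FGF19, SPRY1, SPRY2, DUSP4, DUSP5 and DUSP6 in ATRA 2 alone. A further 4 were lower in ATRA 1 and 3 only and 2 in ATRA 1 only. The 1 gene higher in ATRA 1 and 3 only was DUSP6, already counted among the 9. edgeR called 0 of the 22 on all libraries (1 higher and 7 lower at an unadjusted p under 0.05), DESeq2 3 lower, limma-voom 0, and edgeR without ATRA 2 called 1 higher and 6 lower. The SPRY and DUSP genes are ERK targets that feed back on the pathway. DUSP6, an ERK phosphatase, had 32.5, 58.4 and 6.57 CPM untreated and 352, 4.42 and 426 CPM with ATRA, so that ATRA 1 and 3 were above and ATRA 2 below all untreated libraries (edgeR adjusted p = 0.154; 0.0091 without ATRA 2).

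Over all genes tested, 5.42% were higher and 6.8% lower in ATRA 1 and 3 only, and 1.51% and 1.59% in all 3, against which the counts of the lineage lists are set. Of 23 tested mesoderm genes 10 were higher and 3 lower in ATRA 1 and 3 only, and 2 were higher and 1 lower in all 3. edgeR called 0 of them on all libraries (9 higher and 5 lower at an unadjusted p under 0.05), DESeq2 5 higher and 2 lower, limma-voom 0, and edgeR without ATRA 2 called 5 higher and 3 lower. Of 13 endoderm genes 7 were higher and 1 lower in ATRA 1 and 3 only, and 1 was higher and 1 lower in all 3. edgeR called 0 on all libraries (5 higher and 1 lower unadjusted), DESeq2 3 higher, limma-voom 0, and edgeR without ATRA 2 called 5 higher and 1 lower. The summed endoderm markers were 0.933 to 2.64 CPM untreated and 20.9, 2 and 31.2 CPM in ATRA 1, 2 and 3. GATA6, an endoderm and heart factor, made up most of this, with 1.09, 0.106 and 1.34 CPM untreated and 18.5, 1.17 and 28.1 CPM with ATRA (edgeR adjusted p = 0.0671; 0.00297 without ATRA 2).

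Of 21 tested trophoblast and surface ectoderm genes 7 were higher and 1 lower in ATRA 1 and 3 only, and 3 were higher and 1 lower in all 3. edgeR called 0 on all libraries (9 higher and 2 lower at an unadjusted p under 0.05), DESeq2 6 higher, limma-voom 0, and edgeR without ATRA 2 called 5 higher. The surface epithelium markers summed to 228, 21.3 and 184 CPM untreated and to 151, 165 and 165 CPM with ATRA, so that these groups overlapped. KRT18, a keratin of simple epithelia, had 1161, 429 and 529.8 CPM untreated and 2685, 734 and 2676 CPM with ATRA, with ATRA 2 in the untreated range (edgeR adjusted p = 0.102; 0.00707 without ATRA 2).

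Of 23 tested neural progenitor genes, 3 were higher and 6 lower in ATRA 1 and 3 only, and 1 was higher and 1 lower in all 3. edgeR called 0 on all libraries (3 higher and 6 lower at an unadjusted p under 0.05), DESeq2 2 higher and 1 lower, limma-voom 0, and edgeR without ATRA 2 called 2 higher and 6 lower. The neural progenitor markers summed to 975, 455 and 476 CPM untreated and to 785, 581 and 1251 CPM with ATRA. IRX3, a homeobox gene of the neural plate, had 10.1, 7.87 and 10.4 CPM untreated and 196, 14.4 and 162 CPM with ATRA, and ATRA 2 was above the untreated libraries by less than 2-fold (log2 fold change 3.72, edgeR adjusted p = 0.057; 8.41e-05 without ATRA 2). ZIC2, a zinc finger gene of the early neural plate, had 84.1, 131 and 66.2 CPM untreated and 8.61, 46.4 and 20.9 CPM with ATRA (edgeR adjusted p = 0.0727; 0.00351 without ATRA 2). OTX2, a forebrain regulator, had 10.6, 28 and 3.62 CPM untreated and 1.32, 9.77 and 1.11 CPM with ATRA (edgeR adjusted p = 0.226; 0.0118 without ATRA 2). Of 23 neuronal genes, 3 were higher and 4 lower in ATRA 1 and 3 only, and 1 was higher and 1 lower in all 3. edgeR called 0 on all libraries (5 higher and 2 lower unadjusted), DESeq2 2 higher and 1 lower, limma-voom 0, and edgeR without ATRA 2 called 3 higher and 2 lower. The summed neuron markers were 172 to 441 CPM untreated and 407, 409 and 577 CPM with ATRA. HEY1, a Notch target, had 5.31, 0.986 and 3.39 CPM untreated and 74.5, 3.38 and 59.9 CPM with ATRA (edgeR adjusted p = 0.0657; 0.0017 without ATRA 2). The Notch list as a whole did not move with it. Of its 18 tested genes 1 was higher and 1 lower in ATRA 1 and 3 only, and none responded in all 3. Its median log2 fold change was 0.0265, and edgeR called 0 of the list on all libraries.

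The 9 fibroblast markers summed to 436 to 537 CPM untreated and to 1066, 264 and 1503 CPM in ATRA 1, 2 and 3. COL3A1, a fibrillar collagen, had 69.7, 1.88 and 121 CPM untreated and 613, 39.3 and 569 CPM with ATRA (edgeR adjusted p = 0.252; 0.0978 without ATRA 2). Of 25 fibroblast and matrix genes 7 were higher in ATRA 1 and 3 only. edgeR called 0 on all libraries (1 higher at an unadjusted p under 0.05), DESeq2 0, limma-voom 0, and edgeR without ATRA 2 called 1 higher. The 4 blood markers summed to 1.87 to 8.77 CPM untreated and 4.94 to 20.9 CPM with ATRA, with HBB at 0 in every control library. The part of other cell types in these results was not tested.

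Of 34 tested cell cycle genes 1 was higher and 1 lower in ATRA 1 and 3 only, none responded in all 3, and 4 were lower in ATRA 3 only. Without the 2-fold minimum, the treated libraries lay below all untreated ones for 5 of the 34, against 7.44% of all genes tested, and above them for 3. edgeR called 0 on all libraries (3 higher at an unadjusted p under 0.05), DESeq2 2 higher, limma-voom 0, and edgeR without ATRA 2 called 2 higher and 1 lower. Of 23 cholesterol synthesis genes none responded in ATRA 1 and 3. edgeR called 0 of them (3 higher unadjusted), DESeq2 2 higher, limma-voom 0, and edgeR without ATRA 2 called 2 higher. Of 13 mitochondrial mRNAs none responded in ATRA 1 and 3, and none was called by any of these fits or at an unadjusted p under 0.05.

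Of 24 tested CDK inhibitors and p53 targets, 2 were higher in all 3 treated libraries, and 3 were higher and 1 lower in ATRA 1 and 3 only. edgeR called 0 on all libraries (7 higher and 2 lower at an unadjusted p under 0.05), DESeq2 3 higher, limma-voom 0, and edgeR without ATRA 2 called 5 higher and 1 lower. CDKN1C, a CDK inhibitor, had 55.4, 47.7 and 49.3 CPM untreated and 122, 103 and 132 CPM with ATRA. All 3 treated libraries, ATRA 2 included, were about equally high (log2 fold change 1.23 ± 0.23 SE, edgeR adjusted p = 0.057; 0.00755 without ATRA 2). SFRP2, a secreted WNT antagonist, had 221, 432 and 292 CPM untreated and 78.9, 124 and 96.2 CPM with ATRA, lower in all 3 (edgeR adjusted p = 0.0566; 0.00645 without ATRA 2). Of 23 tested WNT targets and antagonists 2 were lower in all 3, and 2 were higher and 6 lower in ATRA 1 and 3 only. edgeR called 0 of these 23 on all libraries.

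Whether the control response differed from that of PRMT6 knockout cells was tested as an interaction over all 12 libraries. edgeR called 0 genes (0%), with 1868 (9.76%) at an unadjusted p under 0.05, DESeq2 called 12 and limma-voom 0. Without ATRA 2 edgeR called 2 (0.0101%), HOXD10 and CTD-2124B20.3. In the knockout itself 6 genes were called between ATRA and untreated (0.0314%). For METRN the log2 fold change was 2.97 in the control and 1.86 in the knockout, and for CRABP2 it was 2.35 and 2.19 (interaction edgeR adjusted p = 0.509 and 0.946). The gap was wider for HOXA3 (7.62 and 2.27), PRRX2 (1.92 and 0.24) and RMST (-5.01 and -0.78). Each of these had an interaction edgeR adjusted p of 0.509. CYP26A1 had 6.33 and 7.22, the larger in the knockout (interaction edgeR adjusted p = 0.924). A difference between the responses was therefore not detectable for these genes with this spread.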

How the data were processed

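RNA-seq libraries of NT2/D1 cells were prepared with a stranded TruSeq kit (labels' protocols). The authors' deposited file gives raw, unnormalized counts, with a column for every library. The submitters' processing notes name bcl2fastq, TopHat2, Subread, featureCounts and DESeq2 and the builds hg19 and GRCh37. Not given in the sources used here: tool versions, annotation release, strand setting.

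Low-count genes were removed by filterByExpr of edgeR 4.0.16 (R 4.3.3) at a minimum count of 10, and TMM scaled the libraries. The edgeR quasi-likelihood model fitted 4 group means over 12 libraries (common biological coefficient of variation 0.367). Benjamini-Hochberg adjustment covered all genes tested, and calls needed an adjusted p under 0.05. Levels are CPM on TMM-scaled sizes. The per-library rule used log2 CPM with a prior count of 2. No pair of control libraries agreed within sampling noise. GC content came from GENCODE transcripts, matched by symbol for 85.6% of genes tested. The fits were tested on simulated data. Other settings were DESeq2 1.42.0, limma-voom (limma 3.58.1), RLE scaling, other filters, folds and prior counts, the control libraries alone, a replicate block and leaving out libraries. GC trend removal and the interaction without ATRA 2 were added after seeing the data.

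Named genes are PRMT6, tested HOXA, HOXB, retinoid and pluripotency genes, up to 10 called genes per direction with at least 5 CPM, no overlap and a plain symbol, up to 2 called members of each other list, and the 10 strongest genes of each response pattern. The members and the 31 gene lists were chosen with earlier results of these data known. Symbols ending in P and a number were not counted as plain, so that coding genes such as DUSP6 and TAX1BP3 were left out of the rankings. Some genes covered by this rule are left out of the text and plots.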

Additional observations from a re-analysis of the deposited data

How the results depend on the processing

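Of 19 higher and 3 lower calls, leaving out 1 library at a time gave 0 to 1148 higher and 0 to 1355 lower. Calls were 870 and 751 by DESeq2, 707 and 700 with no filter, 0 and 0 on the 6 control libraries alone, 916 and 987 without both replicates 2, and 10 higher with GC trends removed (1016 and 1364 when ATRA 2 was also left out); limma-voom called 10 lower. RLE scaling, a filter of over 1 CPM in 3 libraries and a 2-fold minimum kept both counts within 1.5 times. The interaction count of 0 became 12 by DESeq2, 8 with no filter and 2 without ATRA 2. The cause of these differences was not tested.

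The replicate number as a block gave 3 higher and 1 lower call on 12 libraries, and 64 and 60 on the 6 control libraries. The same-number deviations correlated at 0.0936, 0.283 and -0.225 for replicates 1, 2 and 3, so the numbers were not taken to pair the libraries.

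With a 1.5-fold minimum the genes higher in all 3, higher in ATRA 1 and 3 only, lower in all 3 and lower in ATRA 1 and 3 only numbered 688, 1666, 697 and 2078, and with a 4-fold minimum 46, 407, 41 and 411. Leaving out 1 untreated library at a time gave 235 to 707, 890 to 1277, 184 to 996 and 1097 to 1790. Of 814 fold changes (48 named genes, up to 17 alternatives), 530 were counted as keeping direction and side of the threshold, 197 moved past it, 87 fell short of it and 0 reversed. The 530 include CYP26A1 and POU5F1 under DESeq2, which gave them no adjusted p, so that their side of the threshold is not known there. With 3 counts worth up to 0.0923 CPM, values of the posterior HOX genes near that level are not resolved.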
